A study of Mus musculus with 6 samples.

Results

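T-box transcription factors were examined in mouse embryonic stem cells that had differentiated for 5 days and were then separated by 2 surface proteins. Of 9 genes of the family set out for description (T, Eomes, Tbx1, Tbx2, Tbx3, Tbx4, Tbx5, Tbx6 and Tbx20), 7 were named in the authors' comparison table, where they held 11 of its 22526 non-control probe sets. Tbx1 and Tbx5 were not analysed here. A probe set, a group of short probes on the array that read one transcript, was taken for a member when its name in that table was the gene's symbol or an older synonym. One Tbx20 probe set (1453351_at) was found in this way, under the name 9430010M06Rik.

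The cells were of CGR8, a mouse embryonic stem cell line, and were grown as embryoid bodies, aggregates in which the germ layers form. Cells positive for both CXCR4, a chemokine receptor, and FLK-1, the vascular endothelial growth factor receptor encoded by Kdr (labelled CXCR4+/FLK+, here double positive), were set against cells negative for both (CXCR4-/FLK-, double negative). Each group was profiled on 3 Affymetrix Mouse 430 2.0 arrays. The series text describes independent collections for 3 biological replicates of each fraction, and also RNA pools without saying what was pooled. The tests therefore set the group difference against the spread between these samples. How far that spread is biological cannot be told. The comparison asks which transcripts differ between the fractions on day 5.

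T-box factors bind DNA through a conserved domain, the T-box, and are named after the mouse gene T, or brachyury. T and Eomes act in the primitive streak, the region of the embryo where mesoderm and definitive endoderm arise, and Tbx6 acts after them in the presomitic mesoderm that forms the somites. Tbx2, Tbx3 and Tbx20 act in the heart, where Tbx2 and Tbx3 repress chamber genes in the atrioventricular canal and the conduction system. Tbx4 is best known from the hindlimb bud.

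The members divided into 3 patterns. Tbx2, Tbx3 and Tbx20 had higher mean levels in double-positive cells, by 2.19-fold to 6.16-fold over their 6 probe sets, and Eomes by 2.32-fold and 2.83-fold over its 2 probe sets. T had a lower mean in double-positive cells, at 0.396 of the double-negative mean. Tbx4 and Tbx6 had small log2 differences (-0.22 and -0.19), less in size than the standard deviation (SD) of either group. The log2 differences of Eomes (1.5 and 1.21) were also below the SD of its double-negative arrays (1.54 and 1.3). No T-box probe set passed Benjamini-Hochberg adjustment over all 22526 probe sets at a threshold of 0.05 (limma moderated test, smallest adjusted p = 0.91 for Tbx2), and 0 of all probe sets did. The percentage called was therefore 0.0% for the array as a whole.

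The values are linear ratios, each probe set having been divided by its median over the double-negative arrays, so they compare arrays and say nothing of the absolute level of a gene or of one gene against another. The authors' table gives each probe set a flag score, a whole number from 2 to 6 that it calls a flag pass value and does not define further. The score was 6 for 5 of the 11 T-box probe sets, 5 for 4 of them, 4 for the Tbx4 probe set and 2 for 1 Tbx20 probe set. The arrays of replicate 1 ran low over all probe sets, with median ratios of 0.751 in double-positive and 0.796 in double-negative cells, against 1.078 and 1.025 in the other double-positive and 1 in each of the other double-negative arrays. In double-positive cells Cxcr4 stood at 5.405, 8.044 and 6.006 in replicates 1, 2 and 3, against 0.783, 1.954 and 1 in double-negative cells. Kdr stood at 4.943, 13.39 and 10.44 in double-positive cells, against 1, 3.929 and 0.75 in double-negative cells. In both genes of the sorted proteins, double-negative replicate 2 was the highest double-negative array, which touches several results below.

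Promoters of 5 of the 7 measured members were in the RefSeq table used (GRCm38.p6), and those of Tbx20, Eomes and T are printed here because these genes had the larger differences among the 5. Each runs 5′ to 3′ over 300 bases, from 250 before the transcription start to 50 after it. Capitals mark CCAAT (the CCAAT box) and TATAA (the TATA box), searched on both strands.
Tbx20, chr9:24774254-24774553, minus strand: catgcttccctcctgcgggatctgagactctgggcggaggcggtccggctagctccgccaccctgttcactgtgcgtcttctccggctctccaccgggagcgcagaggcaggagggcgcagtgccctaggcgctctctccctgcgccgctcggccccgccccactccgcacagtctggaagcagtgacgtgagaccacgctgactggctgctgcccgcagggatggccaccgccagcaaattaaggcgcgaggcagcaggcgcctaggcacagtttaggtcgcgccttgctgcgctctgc
Eomes, chr9:118477939-118478238, plus strand: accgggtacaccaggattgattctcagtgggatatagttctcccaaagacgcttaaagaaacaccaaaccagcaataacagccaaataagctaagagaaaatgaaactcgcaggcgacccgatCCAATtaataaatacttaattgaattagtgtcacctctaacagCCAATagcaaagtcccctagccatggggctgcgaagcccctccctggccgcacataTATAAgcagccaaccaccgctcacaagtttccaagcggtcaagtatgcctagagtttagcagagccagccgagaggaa
T, chr17:8434173-8434472, plus strand: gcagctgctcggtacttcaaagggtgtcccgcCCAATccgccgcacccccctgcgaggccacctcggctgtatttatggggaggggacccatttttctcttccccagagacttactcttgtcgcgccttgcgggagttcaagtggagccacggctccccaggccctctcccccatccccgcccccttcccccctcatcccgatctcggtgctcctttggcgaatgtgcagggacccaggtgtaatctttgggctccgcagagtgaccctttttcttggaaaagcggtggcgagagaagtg

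The printed promoters differed in base composition. That of Tbx20 was 68.3% G and C with 26 CpG dinucleotides and held neither box, and that of T was 61.7% G and C with 17 CpG and held 1 CCAAT box. That of Eomes was 47.3% G and C with 10 CpG, and held 2 CCAAT boxes and a TATA box that began at base -28. Over all 32851 promoters of the table the medians were 52.7% and 7 CpG, 37.4% held a CCAAT box and 24.9% a TATA box. The T-box binding motif GGTGTGA (in 3.98% of all promoters), the TCF/LEF motif CTTTGAT (3.73%) and the GATA motif AGATAA (11.2%) were also searched on both strands. None of these 3 exact sequences was present in the windows of Tbx20, Eomes, T, Tbx4 or Tbx6. Variants were not counted, such as TTCAAAG in the window of T beside the ATCAAAG searched for TCF/LEF.

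Among the cardiac members, Tbx2, a repressor that keeps the atrioventricular canal from taking a chamber fate, had ratios of 3.489, 16.82 and 7.583 in replicates 1, 2 and 3 of double-positive cells, against 1, 5.177 and 0.787 in double-negative cells (1422545_at). The groups overlapped, since double-negative replicate 2 lay above double-positive replicate 1. Tbx2 was 4.78-fold higher in double-positive cells, with a 95% confidence interval of 1.33 to 17.2 (2.26 ± 0.804 on the log2 scale, SE). In the limma fit across all probe sets its p was under 0.05 before correction, and the adjusted p = 0.91. The log2 difference was 3.11 without double-negative replicate 2, the highest of its group, and 1.69 without double-positive replicate 2. Within replicate numbers 1, 2 and 3, double-positive cells were 3.49-fold, 3.25-fold and 9.64-fold higher.

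Tbx3 is the closest relative of Tbx2 and acts in the conduction system of the heart; it is also expressed in pluripotent cells. Its probe set with the higher flag score (1448029_at) stood at 1.83, 7.993 and 5.142 in double-positive cells, against 0.75, 3.841 and 1 in double-negative cells. The second (1437479_x_at), whose suffix marks probes that other transcripts may share, stood at 2.024, 11.42 and 8.935 in double-positive cells, against 0.73, 5.677 and 1 in double-negative cells. The arrays fell in the same order on both probe sets, and on both the groups overlapped through double-negative replicate 2. The log2 differences were 1.57 (SE 0.73) and 1.88 (SE 0.889), with intervals of -0.11 to 3.24 and -0.16 to 3.92, and neither reached an unadjusted p of 0.05. They were 2.29 and 2.79 without double-negative replicate 2.

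Tbx20, which the developing heart needs for chamber growth, was read by 3 probe sets. The one with flag score 6 (1453351_at) stood at 3.849, 12.13 and 8.442 in double-positive cells, against 0.716, 6.519 and 1 in double-negative cells. It was 4.39-fold higher in double-positive cells, with a 95% confidence interval of 1.19 to 16.2 (2.13 ± 0.823 on the log2 scale, SE). Its limma p was under 0.05 before correction, and the adjusted p = 0.95. Without double-negative replicate 2 the log2 difference was 3.12, and without double-negative replicate 1 it was 1.52. The array order was again that of Tbx3, with double-negative replicate 2 above double-positive replicate 1.
A second Tbx20 probe set (1425158_at) had the same order over a narrower range, with 1.517, 4.167 and 2.234 in double-positive cells, against 0.843, 1.586 and 1 in double-negative cells (2.19-fold, log2 difference 1.13, SE 0.457). The third (1422219_a_at) stood at 5.037, 7.382 and 4.245 in double-positive cells, against 0.179, 3.765 and 1 in double-negative cells. It had the largest log2 difference of the 11 (2.62, SE 0.947) and groups that did not overlap, but a flag score of 2. Its difference was 1.48 without double-negative replicate 1 and 3.68 without double-negative replicate 2. The 3 probe sets of one gene thus gave log2 differences between 1.13 and 2.62, all in one direction.

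**Figure D1:**
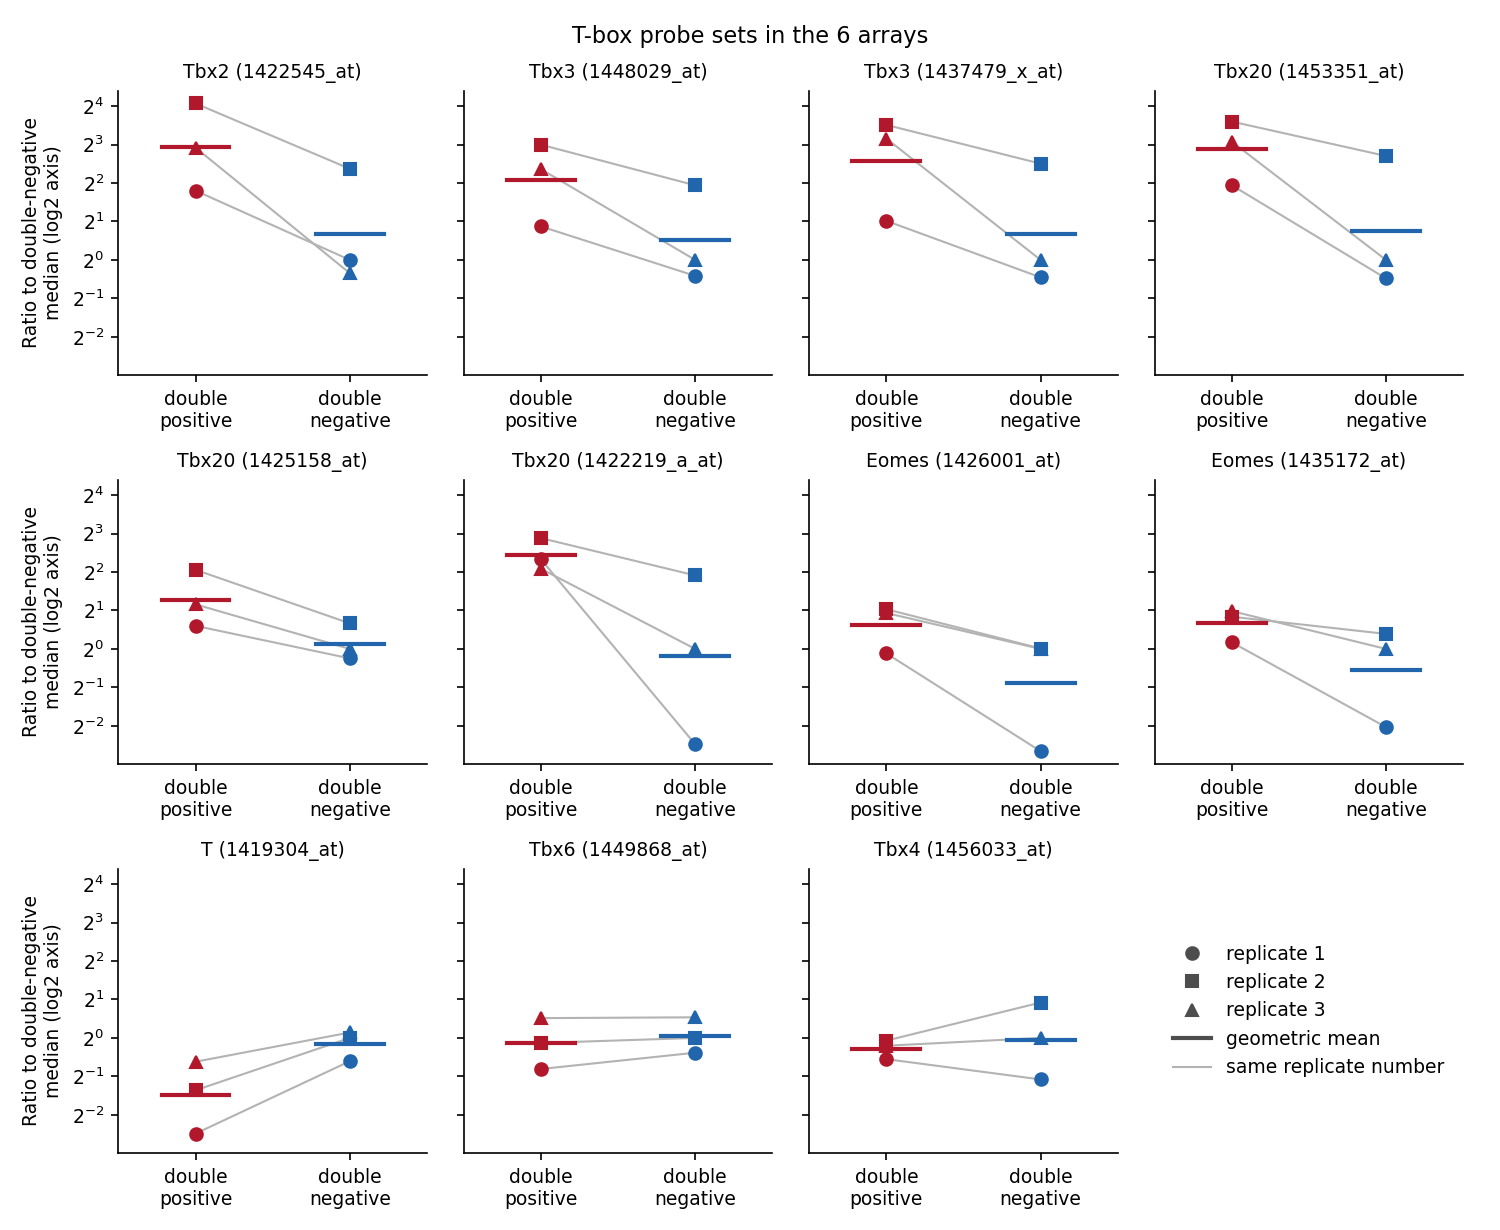
Ratios of the 11 T-box probe sets on a log2 axis, with double-positive arrays (red) left of double-negative arrays (blue), marker shape for the replicate number, thin lines between arrays of one number and bars at the geometric means. All lines of Tbx2, Tbx3, Tbx20 and Eomes run from higher double-positive to lower double-negative values, and those of T run the other way. Double-negative replicate 2 is the highest double-negative array for Tbx2, Tbx3, Tbx20, Eomes and Tbx4. The share of all probe sets with this trait was not counted.

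Eomes, which drives definitive endoderm and early cardiac mesoderm in the streak and also serves the trophoblast, was read by 2 probe sets, both with flag score 6. On 1426001_at it stood at 0.923, 2.047 and 1.912 in double-positive cells, against 0.158, 1.007 and 1 in double-negative cells. On 1435172_at it stood at 1.127, 1.788 and 1.979 in double-positive cells, against 0.244, 1.311 and 1 in double-negative cells. Double-negative replicate 1 was far below the other arrays on both, and the groups overlapped through double-positive replicate 1. The log2 differences were 1.5 (SE 0.731, interval -0.17 to 3.18) and 1.21 (SE 0.624, interval -0.22 to 2.65), without an unadjusted p under 0.05. Without double-negative replicate 1 they were 0.61 and 0.47. When each array was centred on its median, which takes out the low level of the replicate 1 arrays, the groups of both Eomes probe sets no longer overlapped, as in 2739 of the 22526 probe sets. With quantile normalization this held for 1426001_at and not for 1435172_at.

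T, the marker of the streak and of nascent mesoderm, was the member with lower levels in double-positive cells. Its probe set (1419304_at, flag score 6) stood at 0.178, 0.389 and 0.651 in double-positive cells, against 0.657, 1 and 1.103 in double-negative cells. All double-positive arrays were below all double-negative ones, though double-positive replicate 3 and double-negative replicate 1 were nearly level. The log2 difference was -1.34 (SE 0.505, 95% confidence interval -2.49 to -0.18). Its limma p was under 0.05 before correction, and the adjusted p = 0.94. In pairs of one replicate number, double-positive cells stood at 0.271, 0.389 and 0.59 of the double-negative level. Without double-positive replicate 1 the log2 difference was -0.84. The unadjusted p of T was no longer under 0.05 when replicate 1 or 2 of the double-positive arrays was left out, when replicate 2 or 3 of the double-negative arrays was, or with limma's trend and robust options.

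T and Eomes, both streak genes, thus had means on opposite sides. The quotient of Eomes (1426001_at) over T within each array, which is not moved by the level of a whole array, was 5.19, 5.26 and 2.94 in double-positive cells, against 0.24, 1.01 and 0.907 in double-negative cells. With the other Eomes probe set it was 6.33, 4.6 and 3.04 in double-positive cells, against 0.371, 1.31 and 0.907 in double-negative cells. The log2 quotients averaged 2.11 ± 0.48 in double-positive and -0.73 ± 1.15 in double-negative cells for the first probe set (SD, n = 3 each). The groups did not overlap in either quotient, and the exact two-sided permutation test gave p = 0.1 for each (0.1 after adjustment over the 2), the smallest that 3 against 3 arrays allow. Both quotients share T and were chosen after the values had been seen, so the separation and the p only describe these values. How many other gene pairs separate the groups was not counted.

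Tbx6, which specifies paraxial mesoderm downstream of T and Wnt signals, stood at 0.571, 0.913 and 1.429 in double-positive cells, against 0.766, 1 and 1.451 in double-negative cells. Tbx4 stood at 0.682, 0.952 and 0.869 in double-positive cells, against 0.473, 1.894 and 1 in double-negative cells. The groups overlapped widely in both. The log2 differences were -0.19 for Tbx6 (95% confidence interval -1.20 to 0.81) and -0.22 for Tbx4 (-1.39 to 0.94), so differences of either sign remain possible. Tbx4 lies next to Tbx2 among the protein-coding genes of the RefSeq table. The interval of Tbx2 (0.41 to 4.10) overlaps that of Tbx4, and the difference between these neighbours was not tested.

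**Figure D2:**
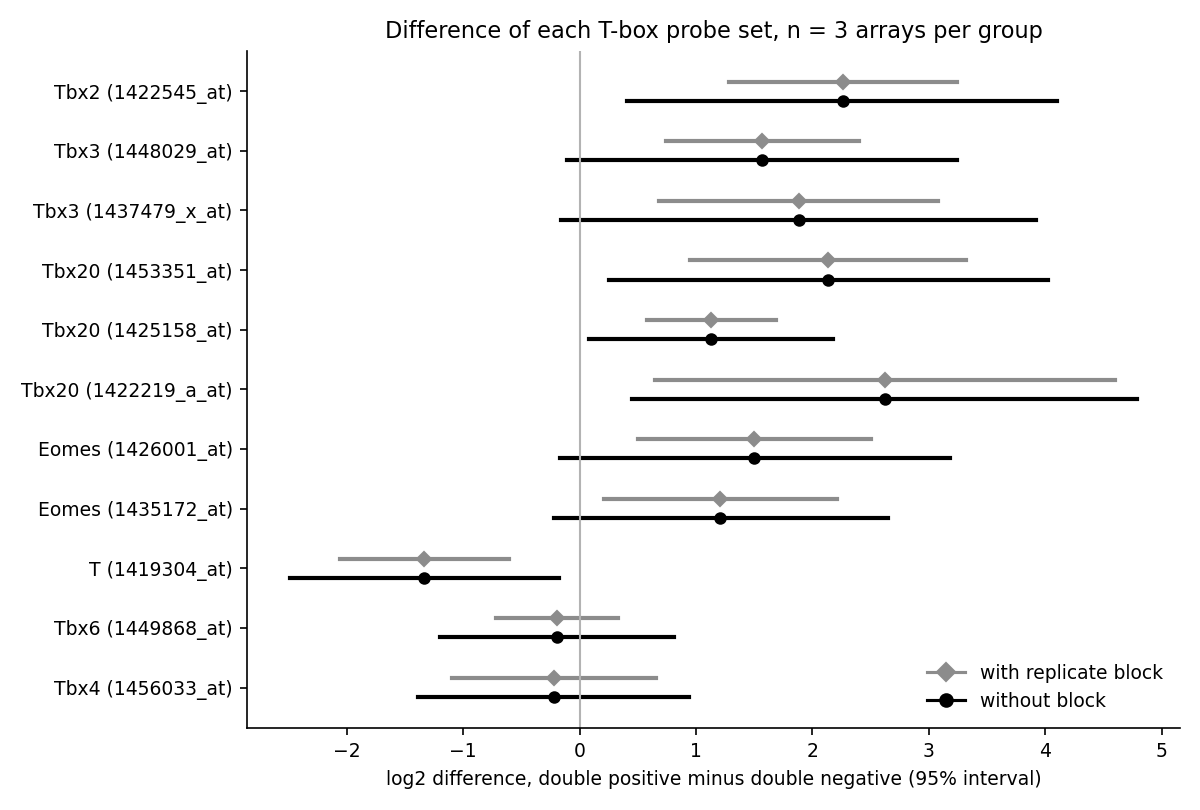
Log2 difference of each T-box probe set, double positive minus double negative, with its 95% confidence interval from limma with the replicate number as a block (grey diamonds) and without it (black circles), n = 3 arrays per group. Without the block the interval is on one side of 0 for Tbx2, T and the 3 probe sets of Tbx20, and with it also for Tbx3 and Eomes.

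Counted together, 5 of the 11 T-box probe sets had an unadjusted p under 0.05, 4 of them higher in double-positive cells (Tbx2 and all 3 of Tbx20) and 1 lower (T). Over all probe sets 4.87% had such a p, 1.38% higher and 3.49% lower. Paired by replicate number, 8 T-box probe sets were higher and 2 lower (T and Tbx6) in 3 of 3 pairs, where 21.5% and 17.7% of all probe sets were. With the replicate number as a block, 9 of the 11 reached an unadjusted p below 0.05, 8 on the higher side and T on the lower, against 12.3% of all probe sets (5.02% higher, 7.24% lower), and 0 passed adjustment (blocked limma, smallest adjusted p = 0.2). The additions were both probe sets of Tbx3 and both of Eomes. Groups that did not overlap were found for 2 of the 11, the Tbx20 probe set 1422219_a_at and T, against 9.99% of all probe sets, 4.61% higher and 5.38% lower. Several of the 11 read the same gene. With 1 probe set for each of the 7 genes, 2 were higher and 1 lower at an unadjusted limma p under 0.05. Over 12290 genes these shares were 1.72% and 3.43%. With the block 4 genes were higher and 1 lower, against 6.27% and 7.63%. Groups did not overlap for 0 genes on the higher and 1 on the lower side, against 5.13% and 5.33%. The median log2 difference over the 11 probe sets was 1.5, beside 0.02 over all probe sets. The members were chosen with earlier results of these data known, so these counts and the median only describe the set. Without the block the count of 5 depended on single arrays. Leaving out replicate 2 of the double-positive arrays gave 0 (2.97% of all probe sets), replicate 3 gave 3 (4.17%) and replicate 1 gave 5, all higher and without T (4.43%). Among double-negative arrays, leaving out replicate 1 gave 2 (5.87%), replicate 3 gave 2 (6.76%) and replicate 2 gave 8 (4.15%). Quantile normalization left 3, 2 higher and 1 lower, against 3.9% of all probe sets.

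The members also differed in how their levels ran over the 6 arrays. Likeness was measured as the root mean square distance between log2 ratios, each probe set centred on its 6-array mean, so that a small value means a like pattern. Tbx2 lay 0.348 from Tbx20 (1453351_at) and 0.455 from Tbx3 (1448029_at), while the last 2 were 0.413 apart. The other probe sets of Tbx20 lay farther from Tbx2, at 0.863 (1425158_at) and 1.01 (1422219_a_at). By comparison, both probe sets of Tbx3 were 0.313 apart, and all 3 distances were below the 0.894 between 2 of the probe sets of Tbx20 (1453351_at and 1425158_at). T lay 2.06 from Tbx2 and 0.607 from Tbx6, its nearest member. Double-negative replicate 2, which had the highest Kdr and Cxcr4 of its group, was also the highest double-negative array for Tbx2, Tbx3 and Tbx20. The same held for Tbx4, at 1.894, and for both Eomes probe sets, at 1.007 and 1.311, but not for T and Tbx6. On the Eomes probe set at 1.007, double-negative replicate 3 was nearly level, at 1. Double-negative replicate 1 ran low over all probe sets, with a median ratio of 0.796. The share of all probe sets for which double-negative replicate 2 was the highest of its group was not counted. Whether cells of the other fraction were carried into double-negative replicate 2 was not tested.

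**Figure D3:**
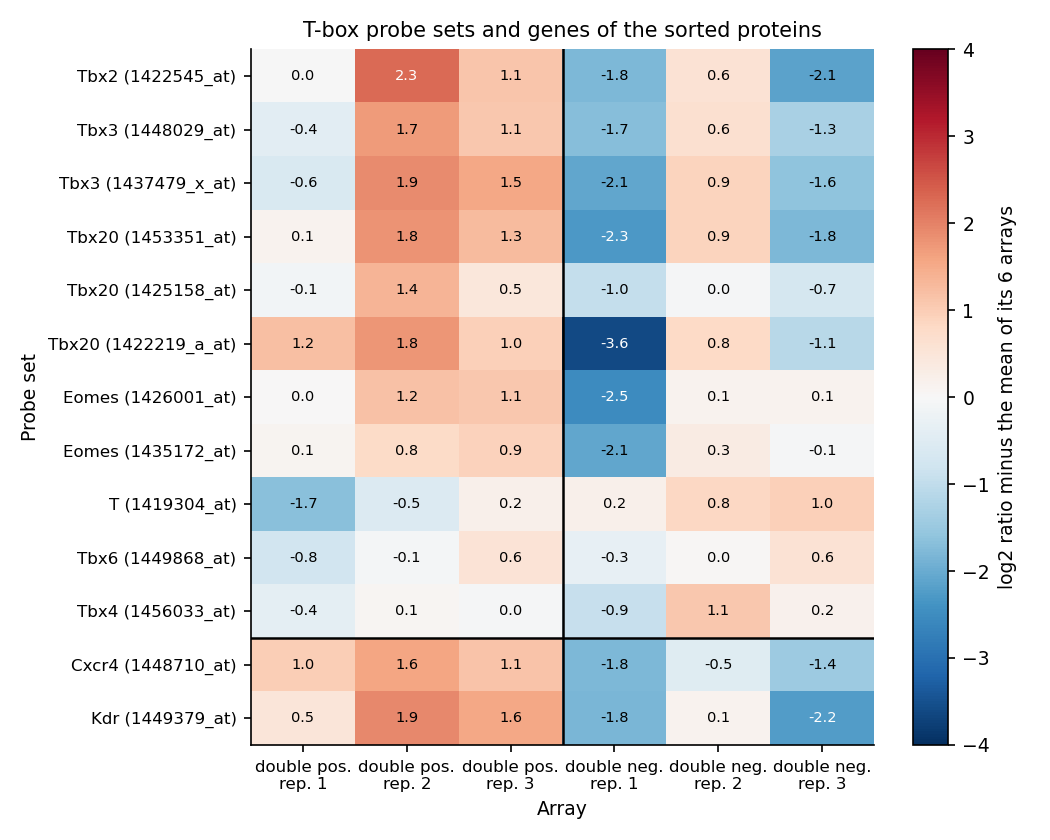
Log2 ratios of the 11 T-box probe sets and of Cxcr4 and Kdr, each row centred on the mean of its 6 arrays, with double-positive arrays left of the vertical line and values printed in the cells. Rows of Tbx2, Tbx3, Tbx20, Cxcr4 and Kdr are highest in double-positive replicate 2, and the row of T is lowest in double-positive replicate 1. Double-negative replicate 2 is the highest double-negative array in the rows of Tbx2, Tbx3, Tbx20, Tbx4, Eomes, Cxcr4 and Kdr. The share of all probe sets with this trait was not counted.

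The genes nearest to each member with flag score 6 were searched among 7950 conventionally named genes with that score. The nearest to Tbx3 were Stard8 (distance 0.1), Magi3 (0.21) and Rgs5 (0.306), where the median gene lay 1.09 away. Stard8 stood at 2.177, 8.976 and 5.143 in double-positive cells, against 0.776, 4.438 and 1 in double-negative cells. The nearest to Tbx20 were a probe set that the authors' table names Nrp (0.168), Stard8 (0.349) and Morc4 (0.351). The Nrp probe set stood at 4.402, 16.91 and 9.409 in double-positive cells, against 0.887, 6.534 and 1 in double-negative cells.
Nearest to Eomes on 1435172_at was Cyp26a1, which breaks down retinoic acid, at 0.121, followed by Limd2 (0.188) and Anxa5 (0.2). On 1426001_at Amot (0.204), Alyref (0.207) and Cyp26a1 (0.232) were nearest. Nearest to T were the phospholipase gene Plcg2 (0.146), Mtmr7 (0.165) and the phosphatase gene Ptpn3 (0.171). These distances are over 6 arrays that share the group difference and the low replicate 1 arrays.

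Genes that act with the T-box factors were counted with 1 probe set per gene over 12290 genes, where 5.14% had an unadjusted p under 0.05 (1.72% on the higher and 3.43% on the lower side), the median log2 difference was 0.04 and 0.0% passed adjustment. The groups did not overlap for 10.5% of genes, 5.13% higher and 5.33% lower, and the block brought 13.9% to an unadjusted p below 0.05, with 6.27% on the higher and 7.63% on the lower side. The lists were chosen with earlier results of these data known, and no gene of any list named below passed adjustment either. Of 9 measured cardiac partners and inducers 4 had such a p, all higher in double-positive cells, with a list median of 0.76. They were Bmp2, a ligand that induces Tbx2 in the atrioventricular canal (log2 difference 2.18, SE 0.426), Hand2 (2.18, SE 0.534), Gata6 (1.69) and Gata4 (1.01). Bmp2 stood at 2.683, 6.014 and 5.403 in double-positive cells, against 0.704, 1.33 and 1 in double-negative cells, without overlap. Nkx2-5, a cofactor of several T-box proteins in the heart, had a flag score of 2 and a log2 difference of 0.03 (SE 0.361).

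Genes known as targets of the cardiac T-box factors went both ways. Of 9 measured, 2 had an unadjusted p under 0.05 on the higher side and 1 on the lower, with a median of 0.15. Those were the hyaluronan synthase gene Has2 (1.79, SE 0.44) and Fgf10 (0.84, SE 0.312), and the myosin gene Myh6 (-1.37, SE 0.302, flag score 2). Cdkn1a, a cell cycle inhibitor gene that Tbx2 and Tbx3 repress, stood at 0.484, 0.834 and 0.763 in double-positive cells, against 0.976, 1 and 1.067 in double-negative cells. Its groups did not overlap, and its log2 difference was -0.59 (SE 0.337). Of the 9 targets 5 had differences above 0 and 4 below. Those above 0 included Cdkn2a (0.15, SE 0.346) and Gja1 (0.6, SE 0.482).

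Signals that induce T and Eomes were mixed. Of 13 measured, 2 had an unadjusted p under 0.05, both lower in double-positive cells, and with the block 1 was higher and 4 lower. Nodal, the ligand that induces Eomes in the epiblast, stood at 0.368, 0.23 and 0.323 in double-positive cells, against 0.728, 1 and 1.046 in double-negative cells (log2 difference -1.60, SE 0.342). Fgf8, needed for cells to leave the streak, had a log2 difference of -1.32 (SE 0.507), and Fgf4 one of -0.82 (SE 0.413). The list median was 0.10.
Of 12 streak partners and targets, 1 had such a p, again Fgf8 (with the block 2 higher and 2 lower), and the median was 0.21. Gsc (1.11, SE 0.5), without overlap between groups, and Mesp1, a target of Eomes in cardiac mesoderm (1.19, SE 0.583), followed by p. Of 6 presomitic genes 0 had such a p in the limma fit and Dll1 did with the block, and the median was -0.18. The smallest p-values in that list were those of the Notch ligand genes Dll1 (-0.78, SE 0.431) and Dll3 (-0.34, SE 0.515) and of the transcription factor gene Tcf15 (-0.69, SE 0.682). Of 9 genes of the Tbx1 pathway, 2 had such a p on the higher side and 2 on the lower, and the median was -0.24. Cyp26a1 had a log2 difference of 1.45 (SE 0.605), and Fgf10 and Fgf8 are given above.

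**Figure D4:**
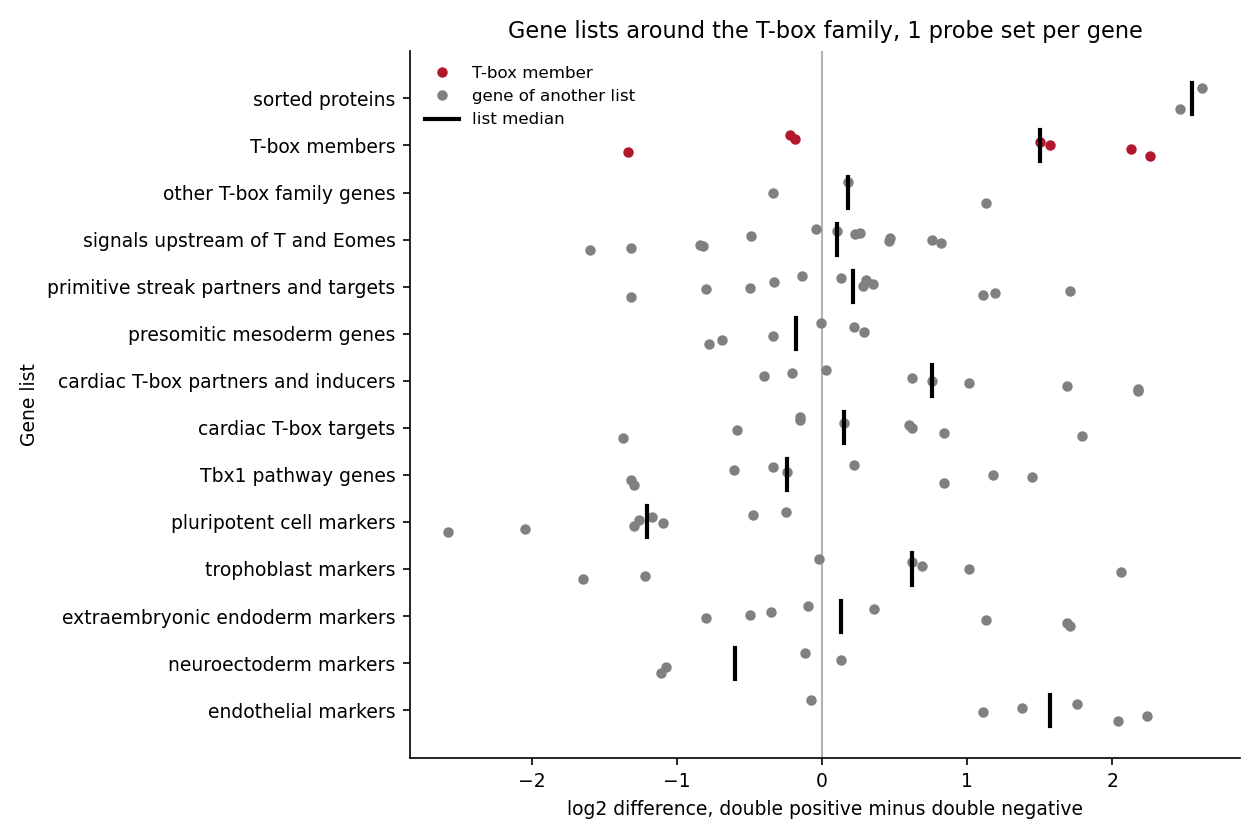
Log2 difference of every measured gene in 14 gene lists, double positive minus double negative, 1 probe set per gene, with the list median as a bar. The T-box members (red) have 4 genes between 1.5 and 2.26, T at -1.34 and Tbx4 and Tbx6 near 0. Medians are 2.55 for the sorted proteins, 1.57 for endothelial markers, 1.5 for T-box members, 0.76 for cardiac partners and 0.62 for trophoblast markers. Those of the other lists lie between -1.21 and 0.21.

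Other T-box genes gave little. Of 8 looked for, 3 were in the authors' table with 5 probe sets. Tbx15 stood at 0.756, 3.163 and 1.984 in double-positive cells, against 0.418, 1 and 1.076 in double-negative cells (1.13, SE 0.598, flag score 2), and its unadjusted p was under 0.05 with the block and not without it. Tbx19 and the 3 probe sets of Mga, a large protein with both a T-box and a Max-binding domain, had log2 differences between -0.73 and 0.18, all with intervals across 0 without the block.

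Markers of other cells the fractions could hold were counted in the same way. Bulk arrays cannot tell fewer cells of a type from less RNA per cell. Pluripotent markers were lower on average in all 8 measured genes, with a mean log2 ratio of -1.60 to -1.06 over double-positive arrays against -0.25 to 0.15 over double-negative ones. The smallest p-values there were those of Sox2 (-2.58), Dppa3 (-2.05) and Pou5f1 (-1.30). Of 6 endothelial markers 5 had an unadjusted p under 0.05 on the higher side, led by Etv2 (2.04), Fli1 (2.24) and Tek (1.11), with list means of 1.01 to 1.49 against -0.80 to 0.53. The remaining marker, the endothelial cadherin gene Cdh5 (flag score 3), had a log2 difference of -0.08 (SE 0.301). Its unadjusted p was not under 0.05, and a difference of either sign remains possible.
Trophoblast markers, relevant to Eomes and Tbx3, ran from -0.84 to 0.43 in double-positive arrays and from -1.55 to 0.54 in double-negative arrays. Of 7 measured, 1 had an unadjusted p under 0.05, Tfap2c (-1.65, SE 0.344), and Cdx2 (-1.22, SE 0.617) and Gata3 (2.06, SE 1.2) were next by p. The median difference was 0.62, and with the block 4 were on the higher side and 2 on the lower. Extraembryonic endoderm markers ran from -0.76 to 0.74 in double-positive arrays against -1.35 to 0.32 in double-negative arrays, with a median difference of 0.13. Of 8 measured, 4 had differences above 0 and 4 below, and 2 had an unadjusted p under 0.05 (with the block 3 higher and 1 lower). The smallest p-values were those of Sox7 (1.71), Gata6 (1.69) and Sparc (1.13). Neuroectoderm markers ran from -1.03 to -0.31 against -1.17 to 0.59, led by Otx2 (-1.11), Sox3 (-1.08) and Nes (0.13), and 0 of 4 had an unadjusted p under 0.05 in limma, against 1 with the block. The part of these cells in the T-box differences was not tested.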

How the data were processed

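The authors deposited linear ratios of 45101 probe sets on 6 arrays, each divided by the median of the double-negative arrays, which is 1 for 100% of probe sets. The authors' comparison table gives a fold ratio, a p-value and a flag score. Its fold equals the ratio of geometric group means within 1% for 100% of its 22526 non-control probe sets. How probes were summarised and scaled is not given in the sources used here; 3 arrays per group limit the precision.

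The two-sided moderated test of limma 3.58.1 (R 4.3.3; lmFit, eBayes) was run on log2 ratios without a pseudocount over all 22526 probe sets. Adjustment was by Benjamini-Hochberg (threshold 0.05). It was run again with 1 probe set per gene (highest flag score, then plainest identifier). The TATA and CCAAT motifs were chosen after the promoters were seen. The fit was tested on simulated data with independent noise for each array. The shared deviations of arrays of one replicate number, given below, were not simulated. SE and intervals are from the fit without a block unless stated.

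Gene names in the table matched a RefSeq symbol (GRCm38.p6) for 11499 probe sets and a RefSeq synonym for 8637. The members and lists were chosen with earlier results of these data known. All members were named, as were the 3 genes of smallest p in each list and the 3 genes nearest each member with flag score 6, except 1 list gene that is not reported here. Cdkn1a, Cdkn2a, Gja1, Cdh5, Nkx2-5, Gata4 and Cyp26a1 as a list member were named after their values were seen.

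Arrays of one replicate number deviated together over the tested probe sets, with correlations of deviations of 0.487, 0.34 and 0.206 for numbers 1 to 3, all over 0.1, so numbers were taken as pairs. The pairing comes from these correlations, not from the labels. Double-positive replicate 3 correlated as well with double-negative replicate 2 (0.205), and double-positive replicate 2 correlated with double-negative replicate 3 at 0.215. Both are also over 0.1, so the rule alone does not settle how replicates 2 and 3 pair. Over all 45037 non-control probe sets the same-number correlations were 0.257, 0.139 and 0.055.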

Additional observations from a re-analysis of the deposited data

How the results depend on the processing

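The count of T-box probe sets past adjustment stayed at 0 under every alternative run, among them the replicate block, quantile normalization, array weights and leaving out each array. That of T-box genes stayed at 0 with the mean over probe sets, the block, median centring, quantile normalization and each array left out, the alternatives run for genes. All 8 differences of Tbx2, Tbx3, Tbx20 and Eomes stayed above 0 and that of T below 0. Tbx4 ran from -0.74 to 0.26 with single arrays left out (0.26 with double-negative replicate 2 absent). Tbx6 turned to 0.07 with array weights and ran from -0.52 to 0.14 with single arrays left out (0.14 with double-positive replicate 1 absent, where the median of all probe sets was 0.18, and 0.05 with double-negative replicate 3 absent). The cause was not tested. The count at an unadjusted p under 0.05, 5 as reported, was 8 and 9 with pseudocounts of 0.437 and 1.748 (7 and 8 of them higher), 8 with median centring (7 higher, against 6.24% of all probe sets), 9 with array weights, 9 with the replicate block, 3 with limma's trend and robust options and 3 with quantile normalization. It was 2 among the 5 probe sets with flag score 6, where fewer were tested, and 0 to 8 with one array left out. Over all probe sets the count of 1097 (310 higher, 787 lower) became 2761 with the block, 3316 with array weights, 728 (428 higher) with the trend and robust model, 504 at flag score 6, 2478 (1186 higher) over all 45037, 2097 when both replicate 1 arrays were left out and 669 when double-positive replicate 2 was. With the block at flag score 6 it was 2142. With the pseudocounts 444 and 579 were higher against 763 and 640 lower. Array weights passed 187 probe sets after adjustment, the block at flag score 6 passed 5, the pseudocounts 1 and 4, and the fit lacking double-positive replicate 3 passed 1, none of them T-box. The replicate block changed no call at the adjusted threshold among T-box probe sets or genes. At an unadjusted p under 0.05 it raised most list counts. Since ratios hide brightness, how far a probe set lay above background could not be judged.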
